A study of Homo sapiens with 12 samples.

Results

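HepG2 cells carrying a short hairpin RNA against p53 were compared with HepG2 cells carrying a control hairpin, both kept for 24 h in the solvent DMSO, so that the difference between the lines was measured without any added p53 stimulator. HepG2 is a human hepatoma line. The members of the comparison were all genes measured by a probe set that the platform annotation pairs with 1 gene symbol, 18417 in number, of which 13813 were bright enough to be tested. The arrays compared were 2 titled sh-p53 DMSO and 2 titled sh-con DMSO, of 12 Affymetrix Human Gene arrays in all. The sh-con line expresses a non-relevant hairpin, so both lines carried a hairpin construct. The other 8 arrays were sh-p53 and sh-con cells, 2 arrays each, after 24 h with 10 uM Nutlin or 0.5 mM AICAR, both named as p53 stimulators by the submitters. The labels describe the duplicates as biological duplicates plated on 6-well plates, and give 1 line per hairpin and no second hairpin sequence. Differences between the hairpins therefore cannot be told apart from differences between these 2 lines, and p-values measure only the spread between duplicate cultures. Whether a line is a pool or 1 clone is not given in the sources used here.

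The protein p53 is a transcription factor that binds DNA as a tetramer and raises the transcription of genes for cell cycle arrest, apoptosis, DNA repair and metabolism. Its level is held low in unstressed cells by MDM2, a ubiquitin ligase whose gene is itself a p53 target, so that both form a feedback loop. Nutlin blocks the binding of MDM2 to p53, and AICAR is converted in cells to a nucleotide that activates the kinase AMPK. Liver cells are known for secreted plasma proteins, bile acid synthesis and enzymes that oxidise and conjugate foreign compounds.

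The duplicate arrays were close to each other. Pearson's r over all probe sets was 0.9926 between the sh-p53 DMSO arrays and 0.9941 between the sh-con DMSO arrays, and array medians lay between 5.64 and 5.68 log2. Of 20 hepatocyte and hepatoma markers 18 were measured here, all of them above the dim level, and APOB, ALB, AFP and GPC3 were each at 11.9 log2 or higher in every DMSO array. The summed level of these 18 markers was 15.88 to 15.99 log2 in sh-p53 and 16.03 to 16.13 in sh-con. Of the other cell types, 7 of 10 endothelial markers had means over all arrays below the dim level of 4.58 log2, PECAM1, CDH5 and VWF among them, and so did 5 of 10 fibroblast and stellate markers, with DCN, LUM and PDGFRA among them. Of 8 leukocyte markers measured 4 lay below it, PTPRC, the defining marker, among them, while LYZ was at 12.42 and 12.57 log2 in sh-p53 and at 12.59 and 12.53 in sh-con, and CD68 at 8.15 and 7.93 in sh-p53 and at 8.38 and 8.38 in sh-con. Only CFTR of 8 cholangiocyte and progenitor markers lay below it, and EPCAM had 10.50 and 10.75 in sh-p53 and 10.52 and 10.36 in sh-con. The summed level was 12.53 to 12.66 log2 in sh-p53 and 12.65 to 12.70 in sh-con for the leukocyte markers, and 11.95 to 12.10 in sh-p53 and 12.12 to 12.20 in sh-con for the cholangiocyte and progenitor markers. In the latter list SPP1 had 9.77 and 9.96 in sh-p53 and 10.82 and 10.76 in sh-con. The median difference of its 7 tested members was 0.19, so the lower sum does not describe most of them. The part of these markers in the results was not tested. The hairpin's own target transcript was not analysed here, so the labels were checked on 3 p53 target genes, CDKN1A, MDM2 and TP53I3, described with the other targets.

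With limma and Benjamini-Hochberg adjustment, 36 genes were higher in sh-p53 than in sh-con cells in DMSO and 53 were lower, which is 0.261% and 0.384% of the genes tested and 0.644% together. At least 2-fold were 18 of the higher and 22 of the lower genes. In all 89 genes both sh-p53 arrays lay beyond both sh-con arrays. The calls rest on these same arrays, so this is a description only; over all genes tested, 37.6% had arrays that did not overlap between the lines. PLA2G2A was the highest and TSPAN7 the lowest of the called genes. At the threshold, POLH was just inside with an adjusted p of 0.0487 and a difference of -0.66, and THBS1 just outside with 0.0531 and 0.58. The uncalled gene with the greatest difference, H2BC12, singled out after its values were seen, was at 6.71 and 6.68 log2 in sh-p53 and at 5.53 and 4.80 in sh-con, a difference of 1.53 ± 0.36 (SE of the fit, limma adjusted p = 0.0692). Leaving out 1 array lowered the counts: 24 higher and 23 lower genes were called without sh-p53 array 1, 22 and 29 without sh-p53 array 2, 22 and 20 without sh-con array 1, and 22 and 38 without sh-con array 2. The call held in all 4 of these fits for 15 higher and 15 lower genes.

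**Figure D1:**
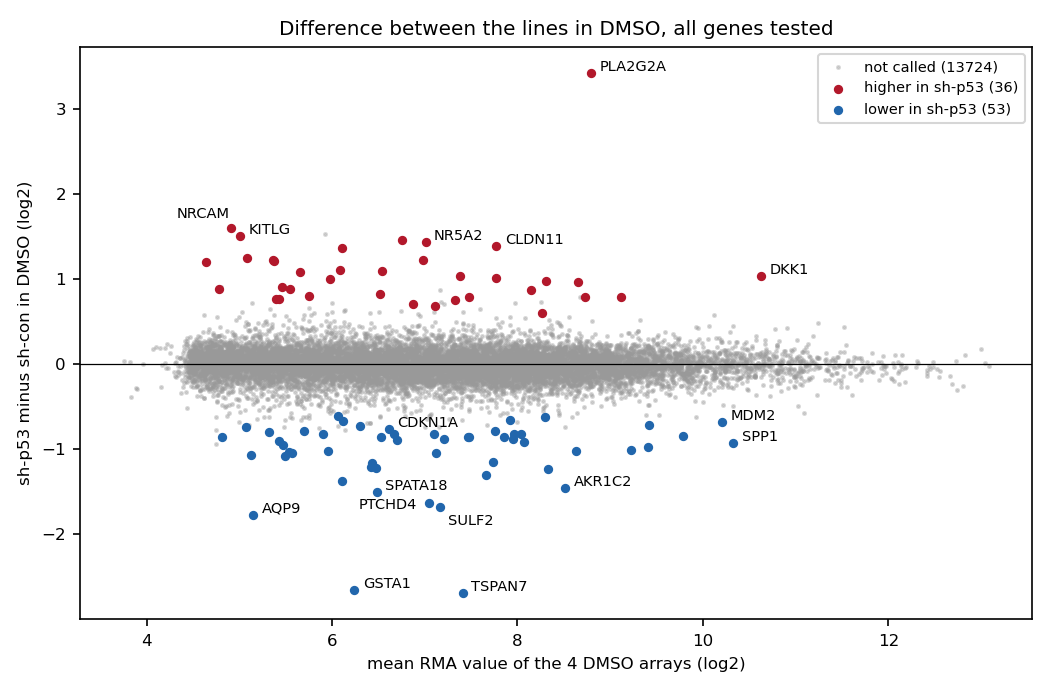
Each point is 1 of 13813 genes tested, with its mean RMA value over the 4 DMSO arrays (log2) on the x axis and the sh-p53 minus sh-con difference in DMSO (log2) on the y axis; red points are the 36 genes called higher and blue points the 53 called lower. PLA2G2A at 3.42 stands apart at the top, TSPAN7 at -2.69 and GSTA1 at -2.65 at the bottom, and most grey points lie near 0.

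Genes known as p53 targets were called lower in the p53 hairpin line in a minority of cases, although most had a difference below 0. Of 95 genes in 6 lists of targets, grouped by role, 85 were tested, and of these 10 were called lower, 1 was called higher and 74 were not called, against 0.384% of all genes called lower. The median difference of the 85 was -0.12 on the log2 scale, beside -0.0038 over all genes tested, and 67.1% lay below 0, beside 50.9% of all genes. At an unadjusted p under 0.05 the lists held 18 lower and 2 higher genes, where 3.33% of all genes tested were lower and 2.29% higher. The call depended on single arrays: without sh-con array 1, 2 of the 10 lower targets were still called, and without sh-p53 array 1 or sh-p53 array 2, 4 were. Without sh-con array 2 it was 7. PTCHD4 and SPATA18 kept the call in all 4 fits, as did the higher gene KITLG.

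In the list headed feedback regulators, PTCHD4, ZMAT3 and MDM2 were lower, 3 of 12 tested, where 0.384% of all genes tested were. The heading is that of the list, and a feedback role of PTCHD4 was not tested. PTCHD4, a patched-domain membrane protein known to restrain Hedgehog signalling, had 6.23 and 6.25 log2 in sh-p53 and 7.89 and 7.84 in sh-con, a difference of -1.63 ± 0.16 (SE; limma adjusted p = 1.25e-05). Its other probe set gave -2.65, so the size of the difference depends on the probes. MDM2 had 9.78 and 9.96 log2 in sh-p53 and 10.63 and 10.47 in sh-con, a difference of -0.68 ± 0.14 (limma adjusted p = 0.0178). Both sh-p53 arrays were below both sh-con arrays for each gene. ZMAT3, an RNA-binding zinc finger protein, differed by -0.85 ± 0.13 (adjusted p = 0.0019). ZMAT3 lost its call without sh-con array 1 (adjusted p = 0.0575), and MDM2 lost it without each array in turn, at adjusted p = 0.332 without sh-p53 array 1, 0.0775 without sh-p53 array 2, 0.392 without sh-con array 1 and 0.0784 without sh-con array 2.

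Among arrest genes, only CDKN1A of 12 tested was called, beside 0.384% of all genes called lower. It encodes p21, the inhibitor of cyclin-dependent kinases, and had 6.14 and 6.32 log2 in sh-p53 against 7.06 and 6.93 in sh-con, a difference of -0.76 ± 0.13 (limma adjusted p = 0.00625) or 1.70-fold. The call was lost without sh-p53 array 1 (adjusted p = 0.18) and without sh-con array 1 (0.181). FAS, a death receptor, was the 1 called gene of 14 in the apoptosis list, with a difference of -0.89 ± 0.15 (adjusted p = 0.00407). FAS lost its call without sh-p53 array 1, sh-p53 array 2 and sh-con array 1, at adjusted p of 0.0599, 0.063 and 0.116. The other death receptor genes and the mitochondrial apoptosis genes were not called, among them BAX at -0.08 ± 0.14 and BBC3 at -0.04 ± 0.18.

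In the remaining lists 5 genes were lower, where 0.384% of all genes tested were. They were POLH, the translesion DNA polymerase eta, 1 of 6 repair genes; SPATA18, which acts in mitochondrial quality control, and SESN1, a sestrin that inhibits mTORC1, 2 of 21 metabolic genes; and CYFIP2, a subunit of the WAVE actin regulatory complex, and EDA2R, a receptor for ectodysplasin, 2 of 21 others. SPATA18 had 5.84 and 5.63 log2 in sh-p53 and 7.34 and 7.14 in sh-con, a difference of -1.50 ± 0.17 (limma adjusted p = 9.62e-05). SESN1 differed by -0.82 ± 0.15, CYFIP2 by -0.88 ± 0.16, EDA2R by -0.82 ± 0.16 and POLH by -0.66 ± 0.15. SESN1 and POLH lost the call whichever of the 4 arrays was left out, at adjusted p of 0.0925 to 0.115 for SESN1 and 0.122 to 0.759 for POLH, lowest without sh-con array 2 and highest without sh-con array 1 for both. CYFIP2 lost it without sh-p53 array 2 (0.182) and sh-con array 1 (0.185), and EDA2R without sh-p53 array 1 (0.325), sh-p53 array 2 (0.0582) and sh-con array 1 (0.409).

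KITLG, the ligand of the receptor tyrosine kinase KIT, was the only listed target called higher. It had 5.62 and 5.91 log2 in sh-p53 and 4.34 and 4.18 in sh-con, a difference of 1.51 ± 0.18 (limma adjusted p = 0.000178), with the sh-con mean under the dim level, so its size is uncertain. TP53I3, a quinone oxidoreductase gene known as a p53 target, was not called: it had 7.56 and 7.78 log2 in sh-p53 and 7.98 and 8.06 in sh-con, a difference of -0.35 ± 0.16 (limma adjusted p = 0.839), although its arrays did not overlap. The same 85 genes were also measured in the compound arrays. Of them, 60 were lower and 3 higher in sh-p53 with Nutlin, where 8.31% of all genes tested were lower, and 50 were lower and 1 higher with AICAR, where 4.69% were. Their median difference was -0.73 with Nutlin and -0.55 with AICAR. TP53I3 itself differed by -3.40 ± 0.16 with Nutlin and -2.84 ± 0.16 with AICAR, and these differences were more negative than in DMSO, by -3.05 and -2.49 (limma interaction, adjusted p = 5.74e-08 and 9.21e-06).

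**Figure D2:**
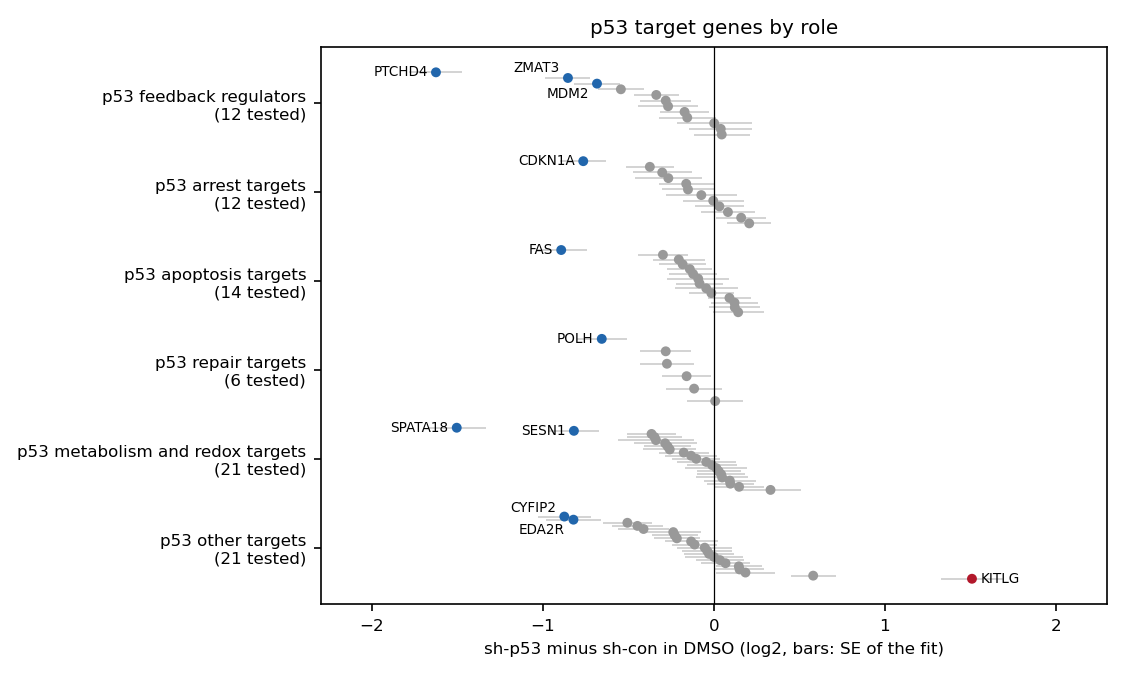
The sh-p53 minus sh-con difference in DMSO (log2, x axis) is drawn for each tested member of the 6 lists of p53 targets, with bars for the SE of the fit and 1 row of points per list. Called members are coloured and named: 10 lie left of 0, from PTCHD4 at -1.63 to POLH at -0.66, and KITLG alone lies right of 0 at 1.51.

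Promoter sequences were searched for the p53 binding site, which consists of 2 repeats of 10 bases. A match had at most 3 bases between the repeats, at most 2 mismatches in all and an intact core C and G in each repeat. The site is a palindrome, so 1 scan covers both strands. The window ran from 250 bases before to 50 bases after each RefSeq gene start (GRCh38.p14). Of the lower genes with a promoter in the table, 4 of 44 held a match (9.09%), of the higher genes 1 of 32 (3.12%), the oxysterol-binding protein relative OSBPL10, of the listed p53 targets tested 7 of 70 (10.0%) and of all genes tested 132 of 10836 (1.22%). Counts of 4 and 1 are small, and a match describes the letters only. Of the 4 lower genes, PTCHD4, MDM2 and FAS are also among the 7 listed targets with a match, so these shares overlap. The 250 bases before the start of 3 of the lower genes and of the higher gene are printed because they hold these matches, with the matching bases in capitals. The fourth lower gene, ACTA2, starts beside FAS on the opposite strand, and its match is the one in the FAS window.
PTCHD4, chr6:48111198-48111447, minus strand, 0 mismatches: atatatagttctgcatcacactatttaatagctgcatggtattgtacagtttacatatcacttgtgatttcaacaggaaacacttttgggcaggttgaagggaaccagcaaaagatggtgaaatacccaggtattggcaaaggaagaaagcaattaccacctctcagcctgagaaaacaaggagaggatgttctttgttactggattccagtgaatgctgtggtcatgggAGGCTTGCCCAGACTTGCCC
MDM2, chr12:68808767-68809016, plus strand, 2 mismatches: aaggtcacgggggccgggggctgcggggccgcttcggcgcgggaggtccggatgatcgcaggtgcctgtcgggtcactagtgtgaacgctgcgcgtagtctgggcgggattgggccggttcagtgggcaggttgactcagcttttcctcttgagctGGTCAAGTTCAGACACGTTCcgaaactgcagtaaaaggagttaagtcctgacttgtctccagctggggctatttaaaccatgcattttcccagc
FAS, chr10:88991181-88991430, plus strand, 2 mismatches: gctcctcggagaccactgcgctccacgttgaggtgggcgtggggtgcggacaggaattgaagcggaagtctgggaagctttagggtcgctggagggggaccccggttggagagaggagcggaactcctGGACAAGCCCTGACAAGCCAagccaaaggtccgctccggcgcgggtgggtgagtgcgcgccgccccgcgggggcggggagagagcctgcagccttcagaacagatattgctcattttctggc
OSBPL10, chr3:31981263-31981512, minus strand, 1 mismatch and a spacer of 3 bases: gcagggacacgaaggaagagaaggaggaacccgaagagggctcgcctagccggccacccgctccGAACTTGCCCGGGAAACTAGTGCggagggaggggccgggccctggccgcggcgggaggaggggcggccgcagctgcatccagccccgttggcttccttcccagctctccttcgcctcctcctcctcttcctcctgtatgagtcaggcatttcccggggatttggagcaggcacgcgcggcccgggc

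PLA2G2A, the secreted group IIA phospholipase A2 that releases fatty acids from phospholipids, was the gene that rose furthest in the p53 hairpin line. It had 10.52 and 10.48 log2 in sh-p53 and 7.08 and 7.09 in sh-con, a difference of 3.42 ± 0.16 (limma adjusted p = 6.05e-10) or 10.7-fold. The gap between the lines was far wider than the gap between duplicates. It was the only 1 of 15 tested genes of phospholipases A2 and lipid mediators to be called, where 0.644% of all genes tested were. The next by size, PLA2G2E, differed by 0.27 ± 0.15. With Nutlin PLA2G2A had 10.66 and 10.39 in sh-p53 against 6.85 and 6.56 in sh-con, and with AICAR 10.62 and 10.81 against 6.77 and 6.44. The lowest of the 6 sh-p53 arrays, at 10.39, thus lay above the highest of the 6 sh-con arrays, at 7.09.

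NRCAM, NEGR1 and L1CAM, adhesion molecules, and CLDN11 and CLDN6, claudins outside any list, were higher in sh-p53. Of 32 tested cell adhesion genes 3 were called higher and 0 lower, beside 0.261% of all genes called higher. NRCAM, an adhesion molecule of the L1 family, had 5.71 and 5.70 log2 in sh-p53 and 4.05 and 4.17 in sh-con (difference 1.60 ± 0.14). NEGR1, an immunoglobulin-domain adhesion protein of the neuronal surface, had 6.77 and 6.80 in sh-p53 and 5.52 and 5.33 in sh-con (1.36 ± 0.17). L1CAM, the founding member of the L1 family, differed by 0.81 ± 0.15. The groups did not overlap for any of them, and the NRCAM mean in sh-con lay under the dim level. The claudins are proteins of tight junctions. CLDN11 had 8.52 and 8.41 in sh-p53 and 6.88 and 7.28 in sh-con (1.39 ± 0.17), and CLDN6 had 7.62 and 7.56 in sh-p53 and 6.40 and 6.33 in sh-con (1.23 ± 0.16). L1CAM lost its call without sh-p53 array 1 (limma adjusted p = 0.298), sh-con array 1 (0.114) and sh-con array 2 (0.0963). The other 4 kept it without any one array, at adjusted p in the whole fit of 6.24e-06 for NRCAM to 0.000534 for CLDN6.

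Single matrix and surface genes were called in both directions, while the list of collagens, laminins, matrix proteases and other matrix genes had lower calls alone. NPNT, nephronectin, a matrix ligand of integrins, had 7.34 and 7.62 log2 in sh-p53 and 6.15 and 5.90 in sh-con, a difference of 1.46 ± 0.14. VCAN, the large matrix proteoglycan versican, had 5.67 and 5.74 in sh-p53 and 4.44 and 4.47 in sh-con (1.25 ± 0.13). MUC13, a transmembrane mucin of epithelia, had 5.21 and 5.27 in sh-p53 and 3.80 and 4.27 in sh-con (1.20 ± 0.17). For VCAN and MUC13 the sh-con mean was under the dim level. In the opposite direction, SULF2, an extracellular sulfatase that removes sulfate groups from heparan sulfate, had 6.24 and 6.41 in sh-p53 and 8.06 and 7.94 in sh-con (-1.67 ± 0.15), and MUC15, another transmembrane mucin, had 5.77 and 5.96 in sh-p53 and 7.25 and 6.91 in sh-con (-1.22 ± 0.18). The list of heparan sulfate and proteoglycan genes thus had 1 higher and 1 lower call among 30 tested, beside 0.261% and 0.384% of all genes. Of 38 tested genes in the list of collagens, laminins, matrix proteases and other matrix genes, 3 were lower and 0 higher, beside 0.384% and 0.261% of all genes. None of the 3 is a collagen, a laminin or a protease. They were SERPINE2, a serine protease inhibitor, by -1.02 ± 0.17, SPP1, osteopontin, by -0.93 ± 0.14, and FBN1, the microfibril protein fibrillin, by -0.73 ± 0.14. All of these had limma adjusted p between 5.17e-06 for SULF2 and 0.0105 for FBN1. NPNT, VCAN, MUC13 and SULF2 kept the call in every fit without 1 array. MUC15 lost it without sh-con array 1 (0.0518), SPP1 without sh-p53 array 1 (0.0504), SERPINE2 without sh-p53 array 1 (0.0563) and sh-con array 1 (0.1), and FBN1 without sh-p53 array 1 (0.0987), sh-p53 array 2 (0.186) and sh-con array 1 (0.294).

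Transcription factors and secreted signals made up another part of the higher genes. NR5A2, the nuclear receptor LRH-1 that drives bile acid genes in liver, had 7.68 and 7.77 log2 in sh-p53 and 6.32 and 6.27 in sh-con, a difference of 1.43 ± 0.18 (limma adjusted p = 0.000189). It was the only 1 of 24 tested hepatocyte transcription factors to be called, where 0.644% of all genes tested were. ELF5, an epithelial factor of the ETS family, had 5.95 and 6.00 in sh-p53 and 4.65 and 4.87 in sh-con (1.21 ± 0.14). UBXN10, a UBX-domain protein linked to cilia, had 5.98 and 5.96 in sh-p53 and 4.86 and 4.63 in sh-con (1.22 ± 0.15). Their groups were clearly apart, and these 3 calls held without any one array. Of 48 tested growth factors and cytokines, 3 were higher and 2 lower, beside 0.261% and 0.384% of all genes. Besides KITLG the higher genes were DKK1 (1.03 ± 0.16) and DKK4 (1.00 ± 0.17), secreted inhibitors of Wnt signalling. The lower genes were FST, the activin antagonist follistatin (-0.97 ± 0.14), and CCN2, the matricellular connective tissue growth factor (-0.72 ± 0.13). DKK1 lost its call without sh-p53 array 2 (0.0611), DKK4 without sh-p53 array 2 (0.145) and sh-con array 1 (0.0842), and CCN2 whichever array was left out (0.108 without sh-p53 array 1 and without sh-con array 2, 0.124 without sh-p53 array 2 and 0.133 without sh-con array 1). FST kept it throughout. Of 50 tested receptors 1 was called, where 0.644% of all genes were: ROR1, a receptor of the Wnt pathway, at -0.61 ± 0.13, and its call was lost whichever array was left out (adjusted p of 0.261 without sh-p53 array 1, 0.332 without sh-p53 array 2, 0.373 without sh-con array 1 and 0.247 without sh-con array 2).

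**Figure D3:**
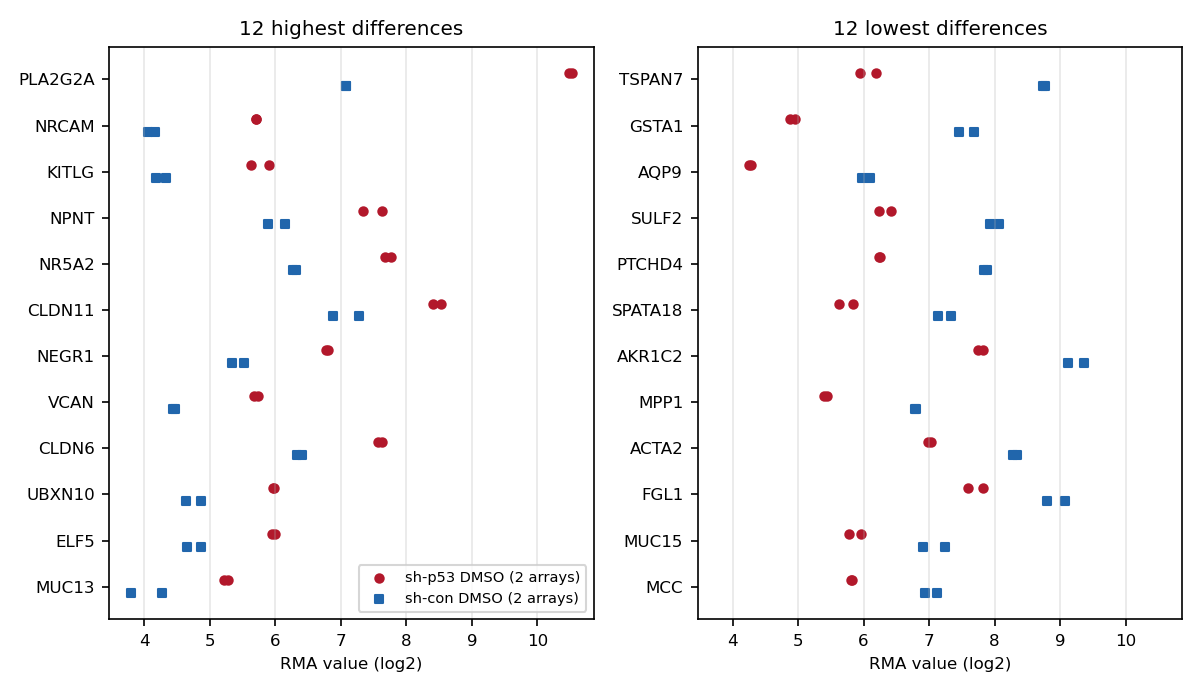
RMA values (log2, x axis) of the 12 called genes with the highest and the 12 with the lowest difference, 1 gene per row, with red points for the 2 sh-p53 DMSO arrays and blue points for the 2 sh-con DMSO arrays. The duplicates lie close together and the colours never overlap within a gene, as for PLA2G2A at 10.52 and 10.48 in sh-p53 against 7.08 and 7.09 in sh-con.

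TSPAN7, a tetraspanin of the cell surface, fell furthest. It had 5.94 and 6.19 log2 in sh-p53 and 8.75 and 8.77 in sh-con, a difference of -2.69 ± 0.14 (limma adjusted p = 3.57e-09) or 6.45-fold. The other 19 tested tetraspanins were not called, where 0.644% of all genes tested were. TSPAN12, the next by size, differed by 0.58 ± 0.16. MPP1, a membrane-associated scaffold protein, had 5.44 and 5.39 in sh-p53 and 6.81 and 6.78 in sh-con (-1.38 ± 0.20). MCC, a protein named for mutations in colorectal cancer, had 5.82 and 5.82 in sh-p53 and 7.13 and 6.93 in sh-con (-1.21 ± 0.14). ACTA2, smooth muscle actin, had 7.03 and 6.99 in sh-p53 and 8.34 and 8.28 in sh-con (-1.30 ± 0.16). These 4 genes kept the call without any one array. ACTA2 is also 1 of 10 fibroblast and stellate markers, 5 of which lay below the dim level; the summed level of the 10 was 8.62 to 8.70 log2 in sh-p53 and 9.24 to 9.26 in sh-con, and no other of them was called. In RefSeq gene order ACTA2 and FAS are neighbours, 1 of 4 adjacent pairs among the called genes. The other pairs were DKK1 with MBL2, C12orf75 with NUAK1, and PCOLCE2 with PAQR9, and in each pair both genes differed in the same direction.

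GSTA1 and AKR1C2 were the enzymes of conjugation and steroid metabolism with the lowest differences. GSTA1, an alpha-class glutathione S-transferase of hepatocytes, had 4.88 and 4.95 log2 in sh-p53 and 7.68 and 7.45 in sh-con, a difference of -2.65 ± 0.14 (limma adjusted p = 3.91e-09) or 6.29-fold. It was the 1 called gene of 18 tested glutathione S-transferases, where 0.644% of all genes tested were called. Its close copy GSTA2 had 4.40 and 4.47 in sh-p53 and 5.14 and 4.98 in sh-con (-0.62 ± 0.25, adjusted p = 0.634), while GSTA3 differed by -0.05 ± 0.15 and GSTA4 by -0.0012 ± 0.14. AKR1C2, a hydroxysteroid dehydrogenase, had 7.75 and 7.83 in sh-p53 and 9.36 and 9.12 in sh-con (-1.45 ± 0.17, adjusted p = 9.62e-05). Of its close copies, AKR1C1 had 10.68 and 10.93 in sh-p53 and 11.44 and 11.31 in sh-con (-0.57 ± 0.14, adjusted p = 0.0884), and AKR1C3 differed by -0.22 ± 0.14. Probes of such near-identical genes can bind each other's transcripts, so the split between the copies is uncertain. AKR1B10, an aldose reductase-like enzyme, differed by -1.02 ± 0.20, and AKR1D1, the steroid beta-reductase of bile acid synthesis, was higher by 1.01 ± 0.18. Of 7 tested aldo-keto reductases 2 were thus lower and 1 was higher, beside 0.384% and 0.261% of all genes. GSTA1 and AKR1C2 kept the call without any one array. AKR1B10 lost it without sh-p53 array 1 (0.379) and sh-con array 1 (0.407), and AKR1D1 without sh-p53 array 2 (0.155) and sh-con array 2 (0.0823).

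UGT2B4, SULT2A1, CYP24A1 and ADH4 were lower as well. Of 8 tested sulfo- and glucuronosyltransferases 2 were lower and 0 higher, beside 0.384% and 0.261% of all genes: UGT2B4, which glucuronidates bile acids, by -1.01 ± 0.15, and SULT2A1, which sulfates steroids and bile acids, by -0.91 ± 0.16. Of 22 tested cytochrome P450 enzymes only CYP24A1, the vitamin D hydroxylase, was called, at -1.15 ± 0.17 (limma adjusted p = 0.0011). The median over the P450 list was -0.20 and 7 members were lower at an unadjusted p under 0.05, with 0 higher, beside 3.33% lower and 2.29% higher of all genes. Calls over all genes were 0.384% lower. ADH4, an alcohol dehydrogenase of liver, differed by -0.88 ± 0.16. CYP24A1 kept its call without any one array. UGT2B4 lost it without sh-p53 array 1 (0.0528) and sh-con array 1 (0.0548), SULT2A1 without sh-p53 array 1 (0.231) and sh-con array 1 (0.173), and ADH4 without sh-p53 array 1 (0.262), sh-con array 1 (0.104) and sh-con array 2 (0.0754). The NRF2 antioxidant list had 2 lower genes among 26, beside 0.384% of all genes called lower, and these were AKR1C2 and AKR1B10 again.

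Liver transport and secretion genes were mostly not called. AQP9, the glycerol channel of hepatocytes, had 4.25 and 4.28 log2 in sh-p53 and 6.09 and 5.98 in sh-con, a difference of -1.77 ± 0.17 (limma adjusted p = 1.25e-05) or 3.41-fold, with the sh-p53 mean under the dim level. It was the 1 called gene of 10 tested aquaporins and glycerol genes. FGL1, a fibrinogen-like protein secreted by hepatocytes, had 7.60 and 7.82 in sh-p53 and 9.08 and 8.80 in sh-con (-1.23 ± 0.17). Both genes kept the call without any one array. Of 58 tested genes for secreted liver proteins, APOM, an apolipoprotein of HDL, was the 1 called, at -0.84 ± 0.15 (adjusted p = 0.00776), and 15 were lower and 3 higher at an unadjusted p under 0.05, beside 3.33% and 2.29% of all genes. Over all genes 0.644% were called. The median of this list was -0.15. KLB, the co-receptor for the hormone FGF19, differed by -0.82 ± 0.15 and SLC40A1, the iron exporter ferroportin, by -0.85 ± 0.15. ATP8B1, the phospholipid flippase of the bile canaliculus, was higher by 1.09 ± 0.15 and kept its call without any one array. APOM lost the call without sh-p53 array 1 (0.125), sh-p53 array 2 (0.0851) and sh-con array 1 (0.267), KLB without sh-p53 array 1 (0.215), sh-con array 1 (0.122) and sh-con array 2 (0.0784), and SLC40A1 without sh-p53 array 1 (0.076), sh-p53 array 2 (0.0828) and sh-con array 1 (0.133). None of 35 tested genes of glucose and lipid metabolism was called with limma, and at an unadjusted p under 0.05 these held 1 higher and 5 lower genes, beside 2.29% and 3.33% of all genes.

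Proliferation genes gave no call in DMSO with limma. Only 0.644% of all genes tested were called there, so 0 calls do not set these lists apart. Of 47 tested S phase genes none was called, with 0 in either direction at an unadjusted p under 0.05, and of 54 tested mitosis genes none was called, with 1 higher and 0 lower at that p. Their medians were 0.03 and 0.06. In the Nutlin arrays 43 of the S phase genes and 53 of the mitosis genes were higher in sh-p53, where 13.1% of all genes tested were. The lists of interferon-stimulated genes (34 tested), small RNA processing genes (14), amino acid and ER stress genes (29), hypoxia and glycolysis genes (26) and reference genes (17) had 0 calls as well. Beside the 0.644% of all genes called in DMSO, 0 calls do not set these lists apart either. At an unadjusted p under 0.05 the interferon list held 1 higher and 3 lower genes, the hypoxia list 2 higher, and the reference genes 1 lower. At that p 2.29% of all genes tested were higher and 3.33% lower.

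The remaining called genes had differences between -1.16 and 1.11. Those that kept the call without any one array were FYN, a kinase of the Src family (1.11 ± 0.13), C12orf75 (1.04 ± 0.16), RNF144B, a ubiquitin ligase (-1.04 ± 0.14), and MACROH2A2, a histone H2A variant of silent chromatin (-1.16 ± 0.16). The other higher genes lost it without at least 1 array: ASB4, KIZ, BAMBI, NUAK1, ALPK2, LINC00917, OSBPL10, GLCCI1, ATP9A, TNFRSF19, HSPB1, CTSE, KLF12, HEY1, ZNF468, MBL2 and SPOCK2. Their differences lay between 0.60 for SPOCK2 and 1.08 for ASB4, and the highest adjusted p on leaving out 1 array was 0.768, for KLF12 without sh-p53 array 1. Among them ASB4 did so without sh-p53 array 2 alone (limma adjusted p = 0.0998), and KIZ (0.0565), BAMBI (0.0578), which encodes a decoy receptor for TGF-beta, and ALPK2 (0.0784) without sh-con array 2 alone. So did the other lower genes, STOM, LIPG, CDO1, GLIPR1, PAQR9, SEL1L3, DNAJC12, ATP2B4, MED12L, PCOLCE2, TTC39C, EFR3B, TNFSF10, RTL8C, CRYBG1, EID1 and SLC22A15, with differences from -1.08 for SLC22A15 to -0.62 for STOM and adjusted p up to 0.826, for SEL1L3 without sh-con array 1. CRYBG1 lost it without sh-con array 1 alone (0.0575). TNFSF10, the death ligand TRAIL, had a difference of -0.95 ± 0.18 and lost its call without sh-p53 array 1 (0.33) and sh-con array 1 (0.407).

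The Nutlin and AICAR arrays measured the hairpin difference in other cultures of the same 2 lines. They share no array with the DMSO difference, but all 12 arrays were fitted together, so the 3 comparisons share 1 estimate of each gene's spread. With Nutlin, 29 of the 36 higher genes were again called higher (80.6%, where 13.1% of all genes tested were) and 47 of the 53 lower genes again lower (88.7%, where 8.31% were). KLB alone was called in the opposite direction. With AICAR, 19 of the 36 were called higher (52.8%, where 4.13% were), 40 of the 53 lower (75.5%, where 4.69% were) and 0 opposite, with 8.83% of all genes called either way. Both compounds gave the same call for 17 higher and 35 lower genes, and neither did for 5 higher and 1 lower. PLA2G2A, NR5A2, CLDN6, TSPAN7, GSTA1, SULF2, ACTA2 and AKR1C2 were among those called in all 3 conditions. The median difference of the 36 higher genes was 1.00 in DMSO, 0.91 with Nutlin and 0.51 with AICAR, and that of the 53 lower genes -0.91, -1.21 and -0.87. The DMSO medians are those by which the genes were called and are given as a description. In the compound arrays alone, both sh-p53 arrays lay above both sh-con arrays with Nutlin for 33 of the higher genes, where they did for 30% of all genes tested, and below them for 50 of the lower genes (28.7% of all). With AICAR this held for 27 of the higher (23.8% of all) and 51 of the lower genes (19.5% of all). Leaving out a DMSO array, which lowers the number of DMSO calls, left 42 repeated calls with Nutlin and 29 with AICAR without sh-p53 array 1, 45 and 37 without sh-p53 array 2, 38 and 29 without sh-con array 1, and 51 and 41 without sh-con array 2.

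**Figure D4:**
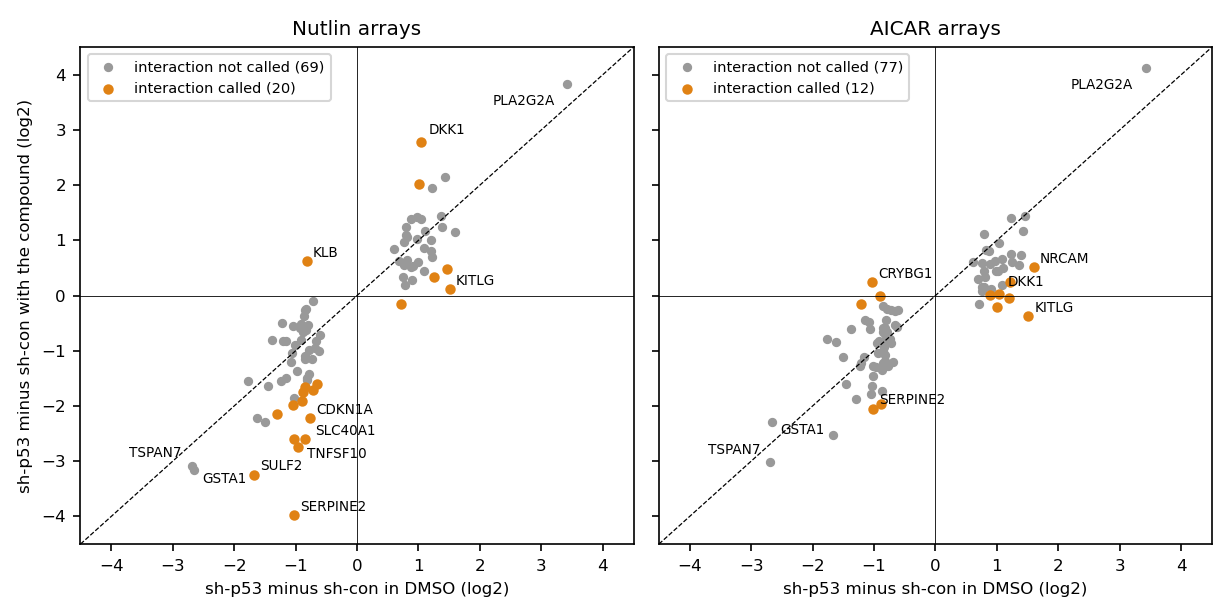
The 89 called genes, with the sh-p53 minus sh-con difference in DMSO on the x axis and the same difference with Nutlin (left) or AICAR (right) on the y axis, both in log2; the line marks equal differences and coloured points have a called interaction. With Nutlin, SERPINE2 at -3.98 and DKK1 at 2.78 lie far from the line and KLB changes sign, while with AICAR KITLG at -0.37 lies below 0.

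For some genes the hairpin difference itself changed with the compound, as tested by the interaction in limma. With Nutlin this was called for 20 of the 89 genes (22.5%, where 7.4% of all genes tested were), 17 of them with a more negative difference than in DMSO (2.73% of all genes) and 3 with a more positive one (4.67%). With AICAR it was called for 12 (13.5%, where 1.01% were), 9 of them more negative (0.709% of all genes) and 3 more positive (0.304%). The interaction contains the DMSO difference by which the genes were called. CDKN1A differed by -2.22 ± 0.13 with Nutlin, with 7.61 and 7.63 log2 in sh-p53 and 9.92 and 9.76 in sh-con, and the interaction was -1.45 (adjusted p = 3.82e-05). With AICAR it had 8.02 and 7.96 in sh-p53 and 9.31 and 9.21 in sh-con, a difference of -1.27 ± 0.13, with an interaction of -0.51 (adjusted p = 0.24). MDM2 differed by -0.96 ± 0.14 with Nutlin and -1.21 ± 0.14 with AICAR, and neither interaction was called (adjusted p = 0.481 and 0.227). KITLG, higher in sh-p53 in DMSO, had 5.40 and 5.32 in sh-p53 with Nutlin, against 5.32 and 5.17 in sh-con cells. It had 4.996 and 5.08 in sh-p53 with AICAR against 5.75 and 5.06 in sh-con. Its differences there were 0.11 ± 0.18 and -0.37 ± 0.18. DKK1 had 11.10 and 10.74 in sh-p53 with Nutlin against 8.30 and 7.97 in sh-con cells, then 8.61 and 8.82 in sh-p53 with AICAR against 8.82 and 8.57 in sh-con, so that the lines lay far apart with Nutlin and overlapped with AICAR. KLB was above sh-con in sh-p53 with Nutlin, at 7.81 and 7.67 against 7.19 and 7.04, and below it in DMSO and with AICAR. The number of called interactions was smaller whichever DMSO array was left out, 7 without sh-p53 array 1, 10 without sh-p53 array 2, 7 without sh-con array 1 and 13 without sh-con array 2 for Nutlin, and 3, 2, 1 and 6 in the same order for AICAR.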

How the data were processed

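The deposited values were log2 expression values, 1 per probe set and array, from 2.14 to 14.33. The authors made them with RMA (background correction, quantile normalisation between arrays and a summary over each set's probes) and Partek, per the submitters' processing notes, and no version is given in the sources used here. Because RMA draws arrays towards a common distribution, a shift of most transcripts one way would be removed in part, and low values hold mostly background. RNA was extracted with TRI reagent and 200 ng was labelled with biotin, per the labels' protocols. All 12 columns matched a title, with 0 left over.

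Of 33297 probe sets, 19460 carried a single gene symbol in the platform table, whose names may be outdated, 1754 carried several, and 12083 absent from it are unnamed here. RefSeq (GRCh38.p14) had 19429 of the single symbols. The brightest probe set stood for a gene (769 genes had several). A mean below 4.58 log2, the 25th percentile over genes, left out 4604 genes.

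Group means of all 12 arrays were fitted with limma 3.58.1 in R 4.3.3 (package data.table at version 1.17.8), which gave 6 residual degrees of freedom and 11.3 prior ones (prior SD 0.154). Genes were called at a 2-sided Benjamini-Hochberg adjusted p under 0.05, in each of 5 comparisons: the hairpins in DMSO, with Nutlin and with AICAR, and both interactions. Differences are sh-p53 minus sh-con, with the SE of the fit. The number of arrays limits the precision. The script was tested on simulated data. Promoters were searched with Python 3.11.15 and pandas 2.3.3, and figures drawn with matplotlib 3.10.9. Values in every DMSO array are given for the 12 highest and 12 lowest called genes whose groups did not overlap and for CDKN1A, MDM2 and TP53I3. GSTA and AKR1C family members and called genes in the compound arrays could also be given by array, and H2BC12 and the markers were added. Any called gene could be named, with up to 4 called members per list, and a list with fewer than 2 calls could name its 2 greatest differences. BAX, BBC3, THBS1, H2BC12 and the markers named outside these rules were chosen after their values were seen. The members and the 37 gene lists were chosen with earlier results of these data known. Alternatives left out each DMSO array, used the replicate number as a block, fitted the 4 DMSO arrays alone, rescaled the arrays, changed the dim filter, averaged probe sets, changed the empirical Bayes prior and tested all probe sets.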

Additional observations from a re-analysis of the deposited data

Results flagged for a closer look

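For 28 of the called genes the hairpin difference with a compound differed from that in DMSO by the test of that difference (limma interaction, adjusted over all genes tested), 4 of them with both compounds. By compound this was 20 with Nutlin, where 7.4% of all genes tested were called, and 12 with AICAR, where 1.01% were. The genes were called by the DMSO difference that each interaction contains, so a smaller difference with the compound can follow from that choice. Values are the sh-p53 minus sh-con difference with the compound minus that in DMSO, on the log2 scale.

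With Nutlin, the difference of p53 target genes was more negative than in DMSO by -1.45 for CDKN1A, -1.01 for FAS, -0.94 for POLH, -0.87 for CYFIP2 and -0.79 for ZMAT3. Among secreted and matrix genes the values were -2.96 for SERPINE2, -1.79 for TNFSF10, -1.57 for SULF2 and -0.999 for CCN2. SLC40A1 had -1.74, RTL8C -1.56, RNF144B -0.93 and ACTA2 -0.85. All of these were lower in sh-p53 in DMSO, so the lines lay further apart with Nutlin. Genes higher in sh-p53 in DMSO had -1.40 for KITLG, -0.97 for NPNT, -0.91 for VCAN and -0.87 for ZNF468, so the lines lay closer together. ZNF468 also changed sign, with a difference of 0.71 in DMSO and -0.16 with Nutlin, where it was not called. DKK1 had 1.75 and AKR1D1 had 1.02, both further above sh-con with Nutlin. KLB had 1.44, with a difference of -0.82 in DMSO and 0.62 with Nutlin. Adjusted p-values lay between 1.52e-07 and 0.0263.

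With AICAR, the higher genes had -1.88 for KITLG, -1.25 for MUC13, -1.20 for DKK4, -1.08 for NRCAM, -1.01 for DKK1, -0.97 for ELF5 and -0.88 for ALPK2. The NRCAM means with AICAR were 4.33 log2 in sh-p53 and 3.82 in sh-con, both under the dim level, so the size of its value is uncertain. The MUC13 means with AICAR were 8.58 in sh-p53 and 8.63 in sh-con. In DMSO they were 5.24 in sh-p53 and 4.04 in sh-con, the latter under the dim level. FAS had -1.08 and SERPINE2 had -1.03, both further below sh-con with AICAR. CRYBG1 had 1.28, MCC 1.06 and EFR3B 0.89, each lower in sh-p53 in DMSO. MCC and EFR3B were closer to sh-con with AICAR. CRYBG1 changed sign, with a difference of -1.04 in DMSO and 0.24 with AICAR, where it was not called. The sign also changed for KITLG, at -0.37 with AICAR, DKK4, at -0.20, and MUC13, at -0.05, and none of them was called there. Adjusted p-values lay between 0.000978 and 0.0457. The groups of 2 arrays are too small for a check of single arrays that stand apart.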

How the results depend on the processing

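Of the 89 called genes and TP53I3, none changed direction under the alternatives run, but most of these could not change it. Their groups did not overlap in DMSO, so leaving out 1 array cannot reverse a direction. The replicate block, the 4 DMSO arrays alone, the dim filters, the prior and all probe sets leave each difference as it was. Only rescaling and averaged probe sets could have changed a direction. The stricter dim filter kept 56 of these genes. The other uncalled genes named were not followed. Leaving out each DMSO array in turn gave 22 to 24 higher and 20 to 38 lower genes in DMSO, 38 to 51 DMSO calls repeated with Nutlin and 29 to 41 with AICAR, and 7 to 13 Nutlin and 1 to 6 AICAR interactions, against 36, 53, 76, 59, 20 and 12 from all arrays; with 1 array left, a group is assumed to vary like the others. The 4 DMSO arrays alone gave 63 higher and 112 lower genes. Testing all 33297 probe sets gave 23 higher and 28 lower single-symbol genes, 43 and 30 repeated calls, and 10 and 0 interactions; the cause was not tested. It also called 10 probe sets that the annotation does not list and 2 with several symbols. A mean-variance trend in the prior gave 34 Nutlin and 19 AICAR interactions, and renewed quantile normalisation gave 31 Nutlin interactions; the cause was not tested. Median centring, renewed quantiles, other dim filters, mean probe sets and a robust prior otherwise kept each count within 1.5 times. The genes behind the counts changed in part. Of the 89 called genes, 8 lost the call with median centring, 8 with renewed quantiles, 4 without the dim filter and 2 with a robust prior. With the trend 1 lost it, and with all probe sets 40 did. Scaling moved the median of all genes by at most 0.0106 log2.

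The titles number the duplicates, but nothing says that a number marks a shared batch. Over the 15 pairs of groups, deviations of same-numbered arrays correlated from -0.558 to 0.567, and at -0.269 between sh-p53 DMSO and sh-con DMSO. With the replicate block the counts were 44 higher and 63 lower genes, 89 and 67 repeated calls, and 26 and 14 interactions, and all 89 called genes kept their call. Changes of dim genes may be understated, which was not tested, and their size is uncertain. For 7 called genes (NRCAM, KITLG, VCAN, MUC13, ALPK2, MED12L and AQP9) the lower group's mean lay under 4.58 log2. TTC39C differed by -0.50 in its other probe set, against -0.86 in the brightest.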
